A study of Mus musculus with 2 samples.

Results

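The genes described here encode proteins that the liver and the foetal yolk sac release into blood plasma. A list of 36 such genes was taken by name from the scanner files, where 46 of 39429 probes and 36 of 31791 gene names belong to it. The list was drawn up with the log2 ratios of Tbx2-GOF over control on these same arrays known, and its leading genes were selected on those ratios. The values of the 36 genes are therefore given as a description. The number of them past the threshold of the fit over all genes is given beside the share of all genes called, and nothing is read from it.

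RNA came from ureters of male NMRI mouse embryos at E13.5, in mid-gestation. Tbx2-GOF embryos were Tbx18(cre/+);Hprt(Tbx2/Y), and control embryos were Tbx18(+/+);Hprt(Tbx2/Y). Both genotypes thus carried the Tbx2 allele at Hprt on the X chromosome, and cre stood at one Tbx18 allele of the Tbx2-GOF embryos only. Control embryos had 2 normal Tbx18 alleles, so the presence of cre and the loss of 1 Tbx18 allele cannot be told apart from Tbx2 activation. Cre placed at Tbx18 acts where Tbx18 is active, which in the urinary tract is the mesenchyme around the ureter. Each of the 2 arrays was read in 2 colours and carried 1 Tbx2-GOF and 1 control extract, with the dyes swapped: Tbx2-GOF was red on array 1 and green on array 2. The labels do not say how many embryos went into an extract or whether each array had embryos of its own, so any p-value here reflects just the difference between 2 arrays and may be purely technical. In whole ureters, fewer cells of a type and less RNA per cell cannot be told apart. All 16 genes of a ureter marker list, among them Tbx18, Upk3a, Krt5 and Acta2, had a channel well above background.

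Hepatocytes make most plasma proteins and pass them to the blood by the secretory route. Before and while the liver forms, the visceral endoderm of the yolk sac makes many of the same proteins, and alpha-fetoprotein is the foetal counterpart of albumin from a neighbouring gene. In both tissues these genes are transcribed under a shared set of factors, including the HNF1, HNF4, FOXA and CEBP families. The ureter is not known for making them in quantity.

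Sequences of both kinds that bear on the leading genes, promoters and probes, are shown here. The first set is the region just before the start sites of Afp and Alb, from RefSeq promoters of GRCm38.p6 (Afp at chr5:90490594-90490713 and Alb at chr5:90460750-90460869, plus strand, 120 bases each). Capitals mark matches to the binding pattern of HNF1-type factors.
Afp: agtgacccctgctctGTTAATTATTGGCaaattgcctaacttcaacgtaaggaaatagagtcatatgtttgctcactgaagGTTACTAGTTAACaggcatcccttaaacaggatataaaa
Alb: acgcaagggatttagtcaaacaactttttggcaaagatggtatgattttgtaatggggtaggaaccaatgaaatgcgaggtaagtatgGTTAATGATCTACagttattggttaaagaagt

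The pattern searched was GTTAAT, then any 1 base, then ATTAAC, on both strands of the 250 bases before a start site, with at most 2 mismatches over its 13 letters. Of the 28 listed genes with a RefSeq promoter entry, 4 held a match (14.3%), against 392 of 27025 genes (1.45%) with an entry. Afp had 2 matches, at -105 to -93 and at -39 to -27 from the start. Alb had 1 at -32 to -20, and the fibrinogen genes Fga and Fgb had 1 each, at -50 to -38 and at -36 to -24. A match is a likeness of letters, not a site. Trf, Kng1, Ttr, Apoc3, Plg, Serpina6, Hp and Apoc1 had no entry. The members with a match ran from Afp, lowest of all, to Fga and Fgb, which were close to the median of the list.

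The second set is probes. Each is the 60 bases at which a transcript was read, given on the strand of the transcript with mm9 positions from the scanner files. They are shown for Alb, one of the lowest genes, and for 3 genes whose other probe was compared with the one shown.
Alb (chr5:90901598-90901657, plus strand): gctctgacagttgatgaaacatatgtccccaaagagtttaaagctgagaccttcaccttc
Apoa2, dimmer probe (chr1:173156320-173156379, plus strand): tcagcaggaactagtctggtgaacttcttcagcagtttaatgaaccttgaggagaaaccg
Serpina6, dimmer probe (chr12:104886817-104886876, minus strand): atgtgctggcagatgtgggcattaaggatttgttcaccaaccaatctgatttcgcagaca
F10, dimmer probe (chr8:13055774-13055833, plus strand): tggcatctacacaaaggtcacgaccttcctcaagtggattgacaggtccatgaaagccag

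Of the 36 genes, 30 had a probe well above background in the Tbx2-GOF or the control channel on both arrays and entered the fit over 21097 genes. Among these 30, the median log2 ratio of Tbx2-GOF over control was -0.53, with -0.35 on array 1 and -0.53 on array 2, while the median over all 21097 genes was 0.00. The ratio was below 0 on both arrays for 23 of the 30 (76.7%), against 25.1% of all genes, and above 0 on both arrays for 1, against 26.1%. At least 1.5-fold lower on both arrays were 10 of the 30 (33.3%), against 0.545% of all genes, and 4 were at least 2-fold lower on both (13.3%), against 0.114%. None was 1.5-fold higher on both arrays, against 0.825% of all genes. These shares describe how the list was drawn up and say nothing further about it. The fold counts use the ratio as computed, also for 5 of the 30 genes whose Tbx2-GOF channel was well above background on neither array. For those genes the fold is a bound. F2, among the 10 counted as 1.5-fold lower, had a bound of 1.46-fold. All 36 genes, taken without the filter on dim probes, had a median of -0.46, with 28 below 0 on both arrays, 1 above and 7 in opposite directions.

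**Figure D1:**
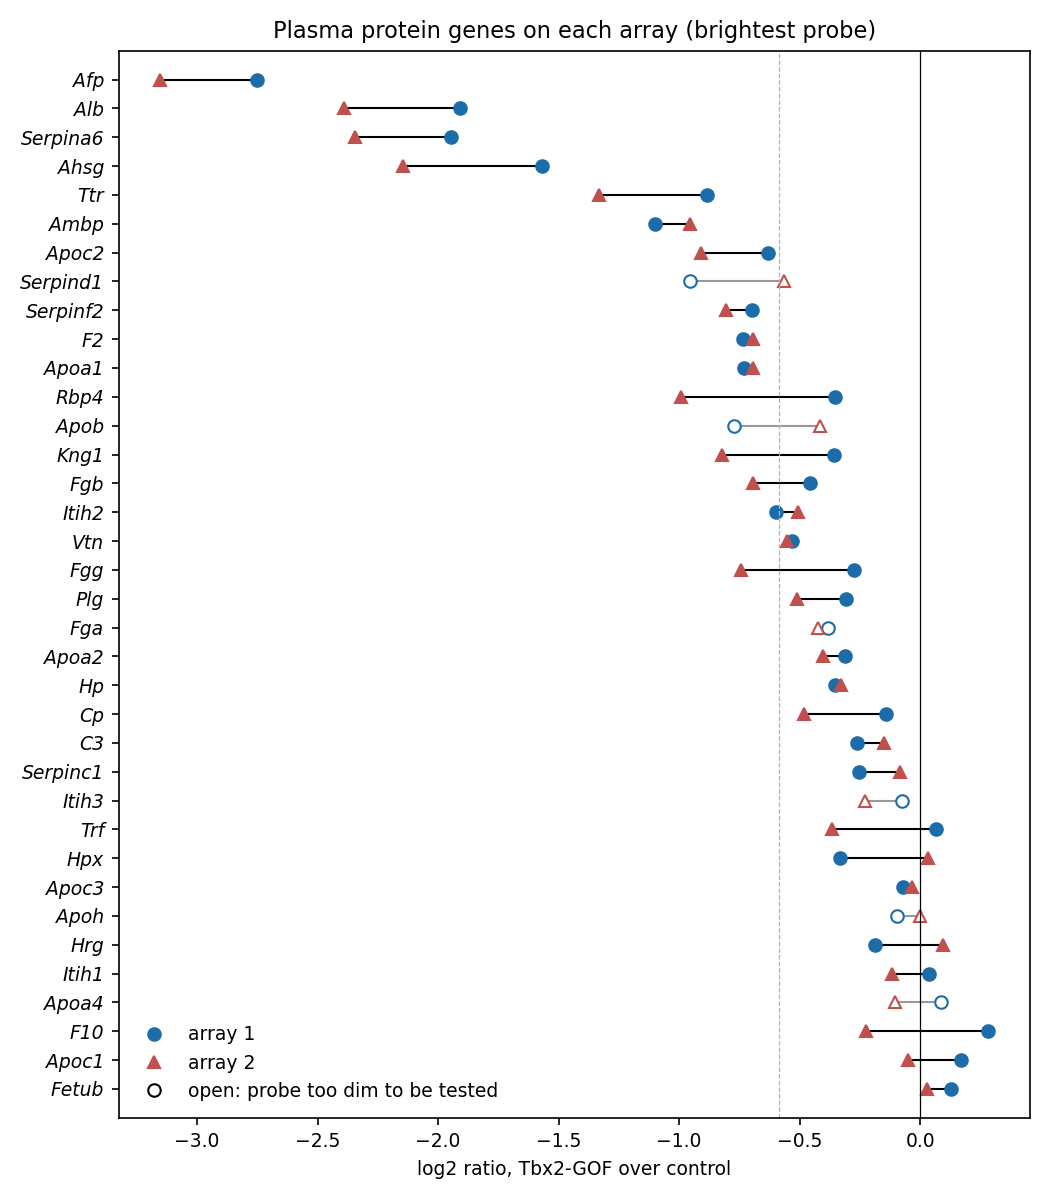
The log2 ratio of Tbx2-GOF over control (horizontal axis) is plotted for the brightest probe of each of the 36 genes, ordered by mean, with a circle for array 1 and a triangle for array 2; open symbols are the 6 genes too dim to be tested, and the dashed line marks 1.5-fold lower. Afp stands at -2.75 and -3.15, Fetub is the only gene above 0 on both arrays, and most genes lie between -1 and 0.

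The carrier proteins included the 3 lowest genes, Afp, Alb and Serpina6, and also one near 0, Trf. Afp, alpha-fetoprotein, had net spot signals (mean spot intensity less local background) of 185 and 139.8 in Tbx2-GOF ureters on arrays 1 and 2, against 1454 and 1733 in control ureters. Both Tbx2-GOF values lay far below both control values. The log2 ratio was -2.75 on array 1 and -3.15 on array 2, a mean of -2.95 ± 0.29 (SD, n = 2 arrays) or 7.74-fold lower, so that normalised Tbx2-GOF signal was 14.9% and 11.2% of control. This probe (chr5:90937781-90937840, mm9) was printed in 10 spots per array. Of them 9 were used on array 1, where single spots ran from -2.96 to -2.57, and 10 on array 2, where they ran from -3.31 to -3.00. The spots of the 2 arrays did not overlap, so the arrays differed by more than the spots within an array.

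Alb, albumin, the main carrier and osmotic protein of plasma, had net signals of 177 and 183 in Tbx2-GOF ureters, against 752 and 1234 in control ureters. The Tbx2-GOF signals were nearly equal on the 2 arrays, whereas the control signals were not, and the groups did not overlap. Its log2 ratio was -1.91 and -2.39, a mean of -2.15 ± 0.34. Gc and Afm, the other albumin-family carriers on the same chromosome, were looked up after the values of Alb and Afp were seen: Gc, the vitamin D carrier, was at -0.05 and Afm, afamin, at -0.30, with adjusted p (limma) of 1.00 and 0.537.

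Serpina6, corticosteroid-binding globulin, had net signals of 102 and 86.2 in Tbx2-GOF ureters, against 518 and 687 in control ureters. Its log2 ratio was -1.95 and -2.35, a mean of -2.15 ± 0.28, from a probe at chr12:104884880-104884939 (mm9). A second probe 5' of it in the gene, whose bases are printed above, read -1.20 and -2.10, a mean of -1.65 ± 0.63. Both probes were below 0 on both arrays.

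Ttr, transthyretin, which carries thyroxine and the retinol-binding protein, had net signals of 41.4 and 75.1 in Tbx2-GOF ureters, against 122 and 285 in control ureters. Its log2 ratio was -0.89 and -1.33, a mean of -1.11 ± 0.32, and its Tbx2-GOF channel was well above background on 1 array only. Rbp4, the retinol carrier that travels with Ttr, was brighter. Its net signals were 905 and 871 in Tbx2-GOF ureters, against 1042 and 1860 in control ureters. The log2 ratio of Rbp4 was -0.35 on array 1 and -0.99 on array 2, so the extent of the decrease turned on the array. Trf, transferrin, the iron carrier, did not keep one direction, at 0.06 and -0.37, with net signals of 3935 and 3645 in Tbx2-GOF ureters and 3291 and 5114 in control ureters. The 6 carriers had a median of -1.63.

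**Figure D2:**
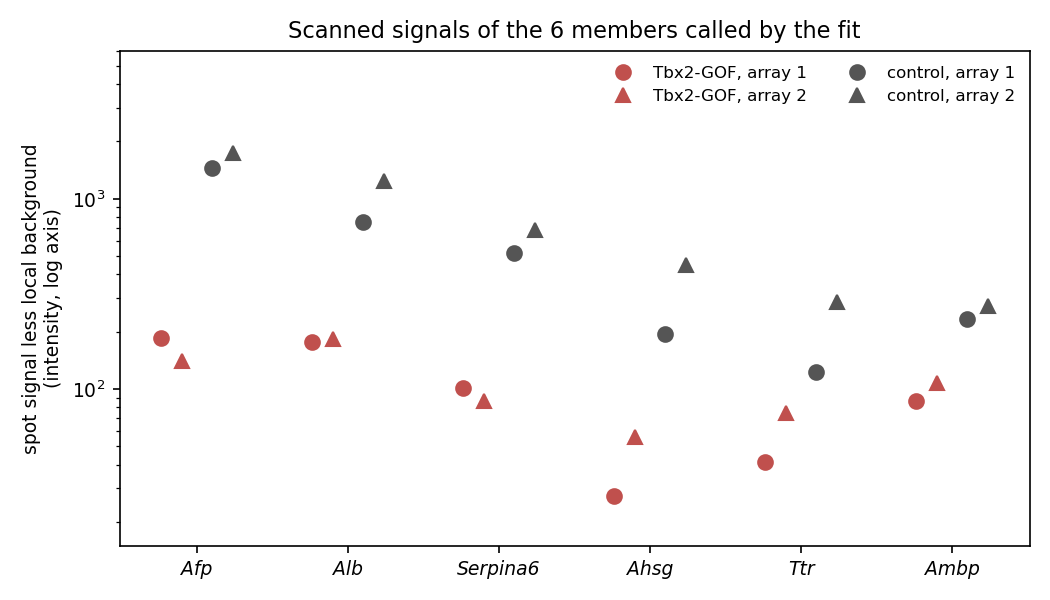
Net spot signals (spot intensity less local background, log axis) are plotted for Afp, Alb, Serpina6, Ahsg, Ttr and Ambp, with Tbx2-GOF points left of control points and circles for array 1 and triangles for array 2. For each gene both Tbx2-GOF points lie below both control points, and Afp has the widest gap, with 185 and 139.8 against 1454 and 1733.

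The 3 binders of copper, haemoglobin and haem were closer to 0. Hp, haptoglobin, which captures free haemoglobin, was at -0.36 and -0.33. Cp, ceruloplasmin, the copper-carrying ferroxidase, was at -0.14 and -0.48, and Hpx, hemopexin, which binds haem, had opposite signs at -0.33 and 0.03. Their median was -0.31.

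The fetuins and the inter-alpha inhibitor family were split. Ahsg, fetuin-A, a mineral-binding inhibitor of calcification, had net signals of 27.3 and 55.6 in Tbx2-GOF ureters, against 194 and 450.4 in control ureters. Its log2 ratio was -1.57 and -2.14, a mean of -1.86 ± 0.41 (chr16:22899415-22899474, mm9). The Tbx2-GOF channel of Ahsg was well above background on 1 array only. Fetub, fetuin-B, its close relative on the same chromosome, was at 0.13 and 0.03.

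Ambp encodes a precursor that is cut into alpha-1-microglobulin and bikunin, the light chain of the inter-alpha inhibitor. Its net signals were 86.0 and 108 in Tbx2-GOF ureters, against 234 and 272 in control ureters. The log2 ratio of Ambp was -1.10 and -0.95, a mean of -1.03 ± 0.10. Ambp was the one gene of the leading 6 that was farther down on array 1. Its probe spans chr4:62804386-62804711 (mm9), longer than the probe itself, so it lies across an intron. The heavy chains that join bikunin were unlike one another: Itih2 was at -0.60 and -0.51, Itih1 at 0.04 and -0.12, and Itih3 was too dim to be tested, at -0.08 and -0.23.

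Apolipoproteins, which carry lipids in plasma, had a median of -0.21 over 8 genes. Apoc2, the cofactor of lipoprotein lipase, had net signals of 230.2 and 229 in Tbx2-GOF ureters, against 349 and 498 in control ureters. Its log2 ratio was -0.63 and -0.91. The Tbx2-GOF signals of Apoc2 were nearly equal on both arrays and lay below both control signals. Apoc3, which inhibits the same lipase, was at -0.07 and -0.03 with its brighter probe, and Apoc1 at 0.17 and -0.05. The other Apoc3 probe, the one listed under a RefSeq transcript, had no channel above background, at 0.03 and -0.26. Apoa1, the main protein of high-density lipoprotein, was well above background in control ureters alone and was at least 1.52-fold lower in Tbx2-GOF ureters. Apob, the protein of low-density lipoprotein, was well above background on 1 array only, in control ureters, and was not tested; its ratio was -0.77 and -0.42. Apoh, which binds phospholipids, and Apoa4 were too dim to be tested and stood at -0.05 and -0.01.

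Apoa2, the second protein of high-density lipoprotein, gave different answers with its 2 probes. The brighter one (chr1:173156445-173156504, mm9) had net signals of 1403 and 1448 in Tbx2-GOF ureters, against 1558 and 2022 in control ureters. It gave a log2 ratio of -0.31 and -0.40. The dimmer one, printed above, had net signals of 75.0 and 91.9 in Tbx2-GOF ureters, against 460.0 and 623 in control ureters, and gave -2.04 and -2.16, a mean of -2.10 ± 0.08 or 4.28-fold lower. The dimmer probe lies 5' of the brighter one on the same strand, and 1 reading frame through its 60 bases held no stop codon. By the dimmer probe Apoa2 would stand next to Alb, and by the brighter one, which represents the gene in all counts here, near the middle of the list.

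**Figure D3:**
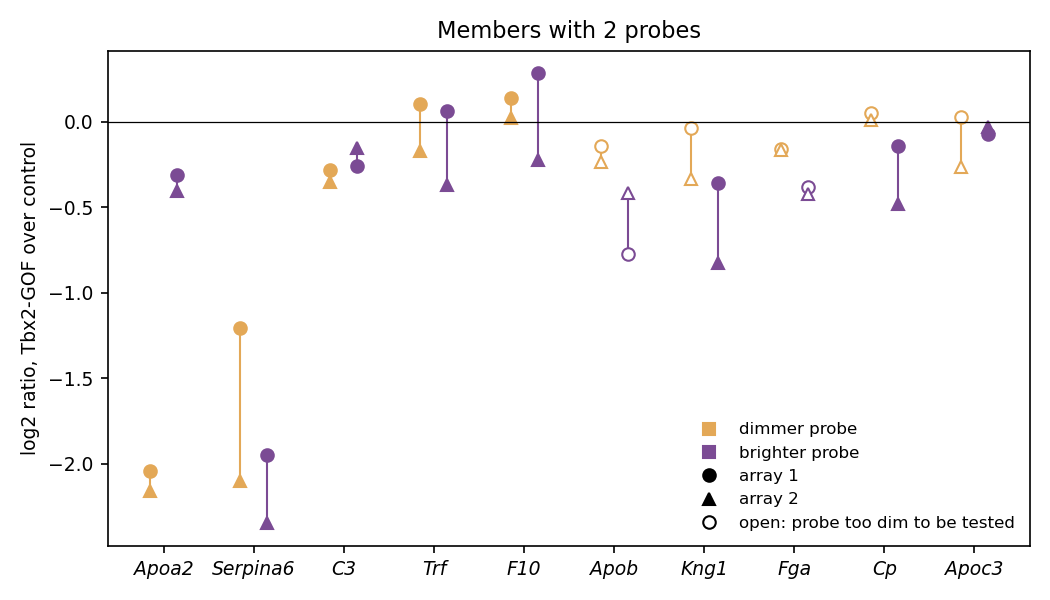
The log2 ratio of Tbx2-GOF over control is plotted for both probes of the 10 genes that have 2, the dimmer probe left of the brighter one, with circles for array 1 and triangles for array 2; open symbols are probes too dim to be tested. The probes of Apoa2 stand apart, at -2.10 and -0.36 on average, while both probes of Serpina6 are far below 0 and both of F10 are close to it.

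Genes of coagulation and its control had a median of -0.51 over 11. Serpinf2, the inhibitor of plasmin, was at -0.70 and -0.80, with net signals of 50.5 and 43.4 in Tbx2-GOF ureters against 113 and 123 in control ureters. Kng1, the kininogen from which bradykinin is cut, was at -0.36 and -0.82, and Fgg, the gamma chain of fibrinogen, at -0.27 and -0.74. Each of these was lower on both arrays, with a gap between arrays wider for Kng1 and Fgg than for Serpinf2. F2, prothrombin, was well above background in control ureters alone and was at least 1.46-fold lower in Tbx2-GOF ureters. Likewise Fgb, the beta chain of fibrinogen, was at least 1.43-fold lower and Plg, plasminogen, at least 1.26-fold lower. Serpind1, heparin cofactor, at -0.96 and -0.57, and Fga, the alpha chain of fibrinogen, at -0.38 and -0.43, were not tested, since only the control channel of array 1 was well above background. Serpinc1, antithrombin, was at -0.25 and -0.09, and Hrg, a histidine-rich glycoprotein that binds heparin, had opposite signs at -0.19 and 0.09.

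F10, the factor that turns prothrombin into thrombin, has a brighter probe whose reading is uncertain. Bases 11 to 40 of that probe (chr8:13056119-13056178, mm9, plus strand) are shown because they resemble a stretch found at many places.
F10, brighter probe: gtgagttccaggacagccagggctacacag

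A run of 15 bases of this probe occurred in 123 of 32851 RefSeq promoters (0.374%), while no run of that length of the dimmer F10 probe or of the Alb probe occurred in any. The dimmer Apoa2 probe shared such a run with 4 promoters (0.0122%). The mouse genome holds many copies of B1 elements, whose sequence this stretch resembles. Its net signals were 252374 and 120485 in Tbx2-GOF ureters, against 122477 and 250153 in control ureters, so each group was the brighter one on the array where it carried the red dye. The log2 ratio was 0.28 on array 1 and -0.23 on array 2. The dimmer F10 probe read 0.14 and 0.02. Neither probe showed a decrease on both arrays.

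C3, the central component of complement, was at -0.26 and -0.15 with its brighter probe and at -0.28 and -0.36 with the other. Vtn, vitronectin, an adhesion protein of plasma and matrix, was well above background in control ureters alone and was at least 1.43-fold lower in Tbx2-GOF ureters.

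In the fit over 21097 genes, limma with Benjamini-Hochberg adjustment at 0.05 called 6 of the 30 tested genes (20.0%), against 135 of all genes (0.64%). All 6 were lower in Tbx2-GOF ureters, against 59 of all genes (0.28%), and none was higher, against 76 (0.36%). They were Afp, Alb, Serpina6, Ahsg, Ttr and Ambp; since the list was built on this contrast, nothing is read from that count. With the scanner software's processed signals, with median centring or with the deposited value table, no gene of the list and none of all genes passed, though 2064, 1219 and 2060 genes had an unadjusted p under 0.05, against 1970 otherwise.

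The values were related to brightness, since 22 of the 30 tested genes lay in the dimmest of 4 equal classes of all genes by mean log2 intensity, 5 in the next, 2 in the third and 1 in the brightest. At least 1.5-fold lower on both arrays were 7 of the 22, against 0.588% of all genes in that class. In the next class they were 3 of 5, against 1.08%, in the third 0 of 2, against 0.284%, and in the brightest 0 of 1, against 0.228%. Of the 7, Ahsg, Ttr, Serpinf2, F2 and Apoa1 passed the filter on dim probes through the control channel alone. The filter lets in a dim gene through the group where it is brighter, so nothing is read from that share. With both channels required above background on both arrays, 5 of 21 listed genes were 1.5-fold lower on both, against 0.495% of all genes. The median of the listed genes was -0.53 in the dimmest class and -0.77 in the next. Across the 30 genes the log2 ratio and the mean log2 intensity had a Pearson r of 0.12 and a Spearman rho of 0.09, a description over genes that share both arrays. With the scanner software's processed signals they were 0.34 and 0.32, and 10 of the dimmer 15 genes were at least 1.5-fold lower on both arrays, against 4 of them with normexp and loess. Over all genes of any brightness the share was 1.09% with the processed signals and 0.545% with normexp and loess.

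Values also moved with the processing. In the dimmer 15 of the 30 genes the median was -0.54, and it was -1.06 with the scanner software's processed signals, which differ in both background subtraction and dye normalization, -0.83 with a normexp offset of 0 and -0.55 with no background correction. In the brighter 15 the median was -0.36, and -0.39 with the processed signals. Plg, at -0.41, was at -2.57 with the processed signals, and Apoa1, at -0.71, was at -2.54. Among the brighter 15, Ahsg stood at -1.86 and at -3.02 with the processed signals, Serpina6 at -2.15 and at -2.84, Ambp at -1.03 and at -1.58, and Afp at -2.95 and at -3.51. Trf, at -0.15 and -0.18, and Apoc1, at 0.06 under both, moved little. The direction of each of the 15 dimmer genes was the same under both ways of processing, and the size was not.

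**Figure D4:**
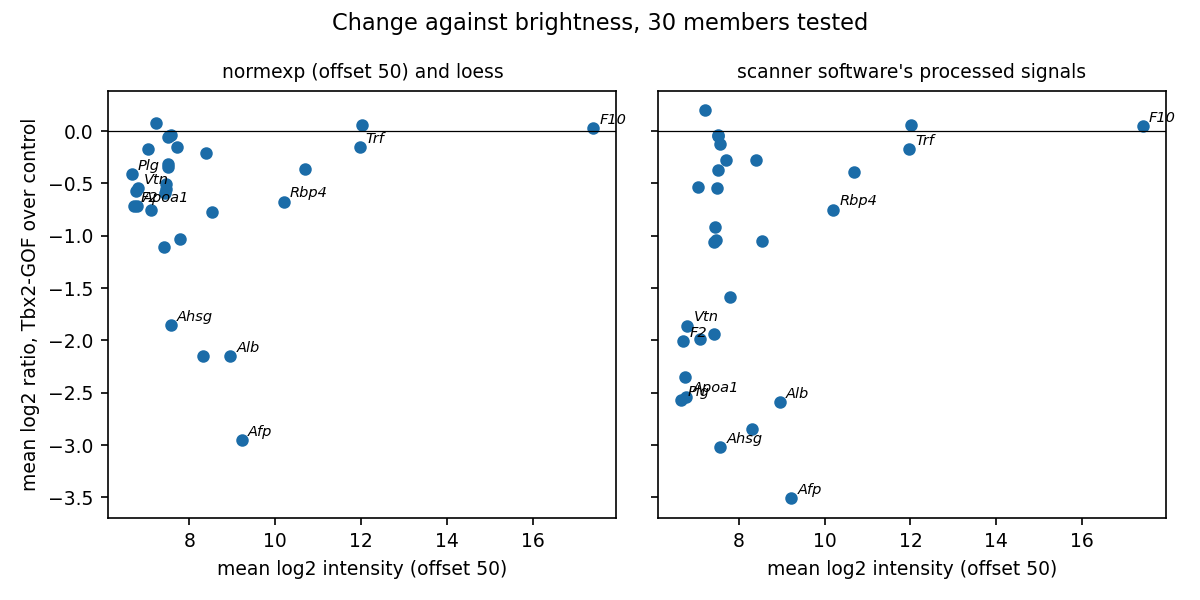
The mean log2 ratio of Tbx2-GOF over control is plotted against mean log2 intensity for the 30 tested genes, with normexp and loess in the left panel and the scanner software's processed signals in the right panel. The dim genes at the left edge, such as Plg and Apoa1, lie between -1 and 0 in the left panel and near -2.5 in the right one, while F10 and Trf stay near 0 in both.

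The 2 arrays were not equal for these genes. Of the 30, 20 were lower on array 2 than on array 1, including 5 of the leading 6. The log2 ratios of the 2 arrays had a Pearson r of 0.94 and a Spearman rho of 0.84 across the 30, and 0.308 and 0.125 across all 21097 genes; these describe genes, which are not independent replicates. Summed over all 30 tested genes, normalised Tbx2-GOF signal was 117% of control on array 1 and 83.4% on array 2, sums made up mostly of the F10 probe. Without F10 it was 78.9% on array 1 and 66.4% on array 2, so the direction on array 1 turned with that gene.

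Other plasma protein genes, which the list leaves out, were looked up as a list of 44, of which 26 were tested. Their median was -0.14, with 19 of the 26 below 0 on both arrays, against 25.1% of all genes. Past the test, 3 fell, against 0.28% of all genes, and 1 rose, against 0.36%. The 3 that fell belong to the alpha-1-antitrypsin cluster, which makes the main plasma inhibitor of neutrophil elastase. Serpina1a had normalised signals of 130.0 and 161 in Tbx2-GOF ureters, against 308 and 516 in control ureters, and fell by 1.46 on the log2 scale (SD 0.31, adjusted p = 0.0203, limma). Serpina1e fell by 1.27 (adjusted p = 0.0277, limma) and Serpina1d by 1.04 (adjusted p = 0.0379, limma). The Tbx2-GOF channel of Serpina1d was well above background on 1 array only. This gene passed the filter on dim probes through the control channel alone, so nothing is read from its call. Serpina1c, at -1.25, did not pass (adjusted p = 0.0598, limma). Copies of this cluster are nearly identical, so one transcript may be read by several of these probes and the genes cannot be counted as separate. Of the list, 14 genes had no channel above background, among them Orm1, Saa4, Mug1 and Serpina3k. None of these 4 calls was made with the processed signals, median centring or the value table, where no gene passed.

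Genes that mark the cells known to make plasma proteins were given beside these values. Of 20 hepatocyte enzymes and receptors, 13 were tested; none passed in either direction, and their median was -0.01. Among those farthest from 0 were Arg1, arginase of the urea cycle, at 0.49 (adjusted p = 0.226, limma), and Bhmt, a homocysteine methyltransferase, at -0.27 (adjusted p = 0.635, limma). Hpd, Otc, Pck1 and Tdo2 had no channel above background. Summed over the 13 tested genes, Tbx2-GOF signal was 109.7% of control on array 1 and 90.7% on array 2. Without Slc10a1, whose probe shares a run of 15 bases with 68 promoters, it was 98.0% on array 1 and 87.4% on array 2, so the direction on array 1 turned with that gene. The remaining sums, 28943 and 31448 in Tbx2-GOF ureters against 29545 and 35992 in control ureters, were made up mostly of Adh1. Adh1 alone had 24133 and 26570 in Tbx2-GOF ureters, against 25027 and 31046 in control ureters. These percentages are thus close to a reading of 1 gene. Of 16 liver transcription factors, 11 were tested, none passed, and the median was -0.03. Below 0 on both arrays were 3 of the 11, and above 0 on both were 4. Cebpa, at -0.43, and Creb3l3, at -0.25, were on the lower side of the list. Foxa3, Nr1i2 and Onecut1 had no channel above background. The summed signal of the 11 was 7934 and 8048 in Tbx2-GOF ureters, against 7487 and 10068 in control ureters, so the groups overlapped.

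Of 12 genes of visceral yolk sac endoderm, all were tested, none passed, and the median was -0.05, with Dab2 at -0.38, Slc13a4 at 0.37 and Rhox5 at 0.29. Their summed signal was 49910 and 47376 in Tbx2-GOF ureters, against 61152 and 51729 in control ureters. Of 7 intestinal genes, 4 were tested and had a median of 0.04, with Lgals4 at 0.23, Muc13 at -0.13 and Cdx1 at 0.13, and Cdh17 and Cdx2 had no channel above background. Their summed signal was 1557 and 1578 in Tbx2-GOF ureters, against 1514 and 1325 in control ureters. What part hepatocyte, yolk sac or intestinal cells had in the plasma protein values was not tested.

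Markers of blood and of tissues near the ureter are given likewise. Of 16 erythroid genes, 15 were tested, none passed, and the median was -0.32, with -0.13 on array 1 and -0.40 on array 2. Klf1, an erythroid transcription factor, was at -0.54 and Hbb-b2, a beta globin, at -0.53. Summed erythroid signal was 863674 and 756976 in Tbx2-GOF ureters, against 839942 and 1023686 in control ureters. All 14 skeletal muscle genes were tested and lay below 0 on both arrays, against 25.1% of all genes. Past the test, 6 fell, against 0.28% of all genes. The median of the 14 was -1.22, with -1.78 on array 1 and -0.80 on array 2. Since the dyes were swapped between the arrays, a difference between array medians cannot be told apart from dye bias.

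Mstn, myostatin, fell by 1.76 (adjusted p = 0.0267, limma), and Chrna1, an acetylcholine receptor subunit, fell by 1.66 (adjusted p = 0.0398, limma). Acta1, skeletal actin, fell by 1.55 (adjusted p = 0.0471, limma). The others that fell were Cox6a2, Myh8 and Tnnt3, while Myh3, the embryonic myosin heavy chain, at -1.99 did not pass (adjusted p = 0.0563, limma). Summed muscle signal was 22439 and 47963 in Tbx2-GOF ureters, against 63332 and 71703 in control ureters. Of 8 adrenal cortex genes, all tested, 2 rose, against 0.36% of all genes. They were Akr1b7, by 3.27 (adjusted p = 0.00516, limma), and Mc2r, the corticotropin receptor, by 1.27 (adjusted p = 0.0277, limma). The control channel of Mc2r was well above background on 1 array only. Mc2r passed the filter on dim probes through the Tbx2-GOF channel alone, so nothing is read from its call. The median of the 8 was -0.01, and Star was at 0.18. The summed signal of the 8 was 9935 and 8185 in Tbx2-GOF ureters, against 1981 and 2330 in control ureters. Akr1b7 alone had 8448 and 6726 in Tbx2-GOF ureters, against 655 and 933 in control ureters, so the gap between the sums was mostly that gene. Of the 16 ureter markers, 1 fell, against 0.28% of all genes. It was Upk3a, a urothelial plaque protein, which fell by 0.86 (adjusted p = 0.0450, limma). Upk2 was at 0.84 and Gata3 at 0.73, and the median of the 16 was 0.12. Their summed signal was 121553 and 149517 in Tbx2-GOF ureters, against 128957 and 140949 in control ureters. The part of attached tissue or blood in the plasma protein values was not tested.

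**Figure D5:**
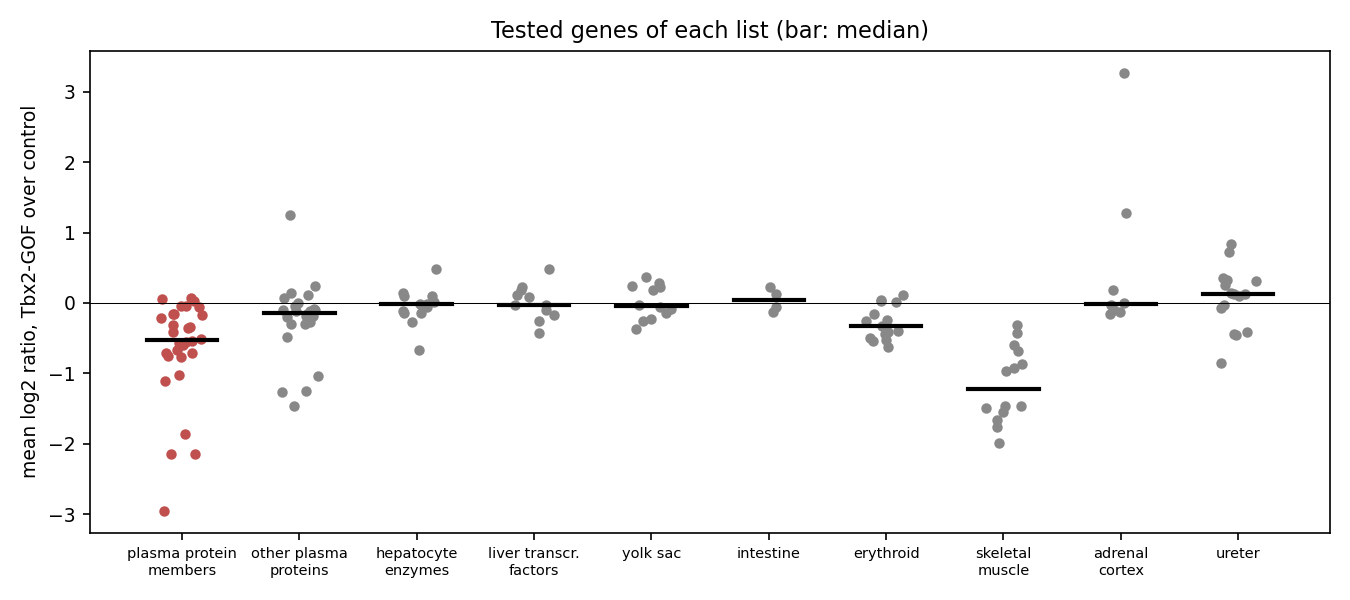
Each point is the mean log2 ratio of Tbx2-GOF over control for 1 tested gene, and each bar is the median of its list. The plasma protein genes have a median of -0.53, the skeletal muscle genes of -1.22 and the erythroid genes of -0.32, while hepatocyte enzymes, liver transcription factors, yolk sac, intestinal and adrenal genes have medians between -0.05 and 0.04.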

How the data were processed

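Total RNA was amplified, labelled with AlexaFluor647 (red) or AlexaFluor555 (green) and hybridised to 2 Agilent arrays. Per the submitters' processing notes, the scans were read with Agilent Feature Extraction 10.7.3.1. Mean spot signals and local backgrounds are intensity values without normalization, per the file headers. The software also gives each intensity after its own background subtraction and dye normalization, and a log10 ratio of red to green, per the file headers. The deposited value table holds a signed fold score with no stated scale, centring or direction. Its median was 1 on both arrays, and it matched the software's log10 ratio, turned by the labelled dyes, within 0.01 for 99.2% and 98.8% of the probes above background in both channels. Exactly 1 were 31.5% and 31.1% of its values, set by a step that no source used here states.

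From the intensity values, log2 ratios were computed with limma 3.58.1 in R 4.3.3: normexp (offset 50), then loess (span 0.3) within each array, control and flagged spots at weight 0. Ratios were turned so that positive means higher in Tbx2-GOF. Spots of a probe were averaged. Probes had to be well above background on both arrays in at least 1 group (26471 kept, 12958 left out), and the brightest kept probe stands for a gene. Normalised signals are single-channel values after loess and Aquantile. For probes whose Tbx2-GOF channel was well above background on neither array, the fold is a bound, the control mean over the higher of the Tbx2-GOF signal and the lowest signal well above background; it is open to dye bias. The 21097 genes were tested with lmFit and eBayes, two-sided, with Benjamini-Hochberg adjustment at 0.05; the script was tested on simulated data. Median signals were 348 and 382 in green and 452 and 449 in red over backgrounds of 28 and 28 and of 94 and 87.5, and the number of arrays limits precision. Symbols were updated through RefSeq for 26412 probes (67.0%). With no genome used, probes are not placed in exons or UTRs.

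The members and all lists were chosen with earlier results of these data known. Named are all 36 members and, of each other list, the genes past the test and the 3 with the largest change. A few genes that this rule names are not reported here. Alternatives varied background correction, dye normalization, scaling, dim-probe filter, probe choice, source of values, test and arrays.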

Additional observations from a re-analysis of the deposited data

How the results depend on the processing

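Over all 21097 genes, 135 passed the test. None passed with the scanner software's processed signals, median centring or the deposited value table, where 2064, 1219 and 2060 had an unadjusted p under 0.05. With scaling between arrays 313 passed, with no filter on dim probes 276 of 31793, and with the mean of a gene's probes 211. A normexp offset of 0 left 109. Of the listed plasma protein genes 6 passed: 0 with the processed signals, median centring or the value table (20, 17 and 19 at an unadjusted p under 0.05), 11 with a normexp offset of 0, 10 with scaling and 11 with no filter. The fit pairs the channels of an array; without that pairing (no replicate block, single channels) 1 gene passed over all genes and 1 listed gene. The listed genes at least 1.5-fold lower on both arrays were 10, against 0.545% of all genes. They became 16 with the processed signals, against 1.09%, and 5 of 21 with both channels required above background, against 0.495%. Single arrays gave 11 to 14 listed genes, with no share over all genes counted beside them, so nothing is read from these counts. The median of -0.53 was -0.98 with the processed signals, -0.75 with offset 0 and -0.34 under the strict filter, and between -0.53 and -0.35 with 1 array left out. Values of single listed genes stayed within the spread between arrays in 204 comparisons and moved past it in 57, with no called gene changing sign. Many of the 204 could not differ. The other dim-probe filters left the same probe and ratio for each gene, and so did averaging for a gene with 1 kept probe. The count of 204 is thus no measure of stability. The causes were not tested. Over the same settings Afp ranged from -3.52 to -2.92, Alb from -2.59 to -2.12, Ahsg from -3.02 to -1.75 and Plg from -2.57 to -0.09, the last in the value table, where many values are exactly 1. F10 changed sign, from -0.04 to 0.05. Dim signal limits the size of the decrease in genes near background, and 2 arrays limit every error given.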
